A study of Homo sapiens with 10 samples.

Results

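Constitutive CTCF peaks at H3K4me3 sites were selected from the CTCF peaks of control HEK-293T cells by their overlap with other peak lists of the same study. A CTCF peak of the control (CT) was taken when it overlapped, by at least 1 bp, a CTCF peak of the CGGBP1-silenced cells (KD), a CTCF peak of the CGGBP1-overexpressing cells (OE) and an H3K4me3 peak of CT. This rule chose 9229 of the 42978 CT CTCF peaks, here called members. The other 9258 constitutive peaks, which overlapped KD and OE CTCF peaks but no H3K4me3 CT peak, are called comparison peaks. Over all CT CTCF peaks, 43% overlapped both a KD and an OE CTCF peak and 26.6% overlapped an H3K4me3 CT peak, and since the rule used these lists nothing is read from those shares.

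HEK-293T, an established line, derives from human embryonic kidney. CT cells carried a non-targeting shRNA and KD cells an shRNA that silences CGGBP1, both under selection with 10 ug/ml puromycin, and OE cells were transduced with a lentivirus that overexpresses CGGBP1. CTCF was profiled by ChIP-seq in CT, KD and OE, H3K4me3, H3K9me3 and H3K27me3 in CT and KD, and an input was sequenced, with 1 library each. There were no replicates, so no p-value is given, and the 95% intervals cover counting error over peaks only. The lists hold positions without heights or depth, and they do not measure CGGBP1 itself.

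CTCF is a zinc finger protein that binds a long, directional DNA motif, insulates neighbouring chromatin and, with the ring-shaped cohesin complex, anchors chromatin loops. H3K4me3 is a histone mark of active promoters, laid down by SET1 and MLL methyltransferases that are drawn to unmethylated CpG islands. H3K9me3 and H3K27me3 are marks of heterochromatin and of Polycomb-silenced genes. CGGBP1 is a DNA-binding protein with affinity for CGG triplets and repeats.

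The strongest sites of the members near a transcription start site (TSS) are shown because they give the CTCF sequence under these peaks. The H3K4me3 peak overlaps the CTCF peak, and need not cover the site itself, which among the TSS sites shown it left wholly uncovered at KIF1B, RAB3IL1 and DPEP2 in CT. Each is read from hg38 on the strand of the motif, 5′ to 3′, with the 14 bases of the best site of a CTCF matrix in capitals, and the name is that of the protein-coding gene whose TSS lies within 1000 bp. Sites in or beside an exon are given with 8 flanking bases and the others with 23.
GAL3ST3, chr11:66045293-66045322, minus strand: cttctcatCCACCAGGGGGCGCagctcagc
GMIP, chr19:19643993-19644052, minus strand: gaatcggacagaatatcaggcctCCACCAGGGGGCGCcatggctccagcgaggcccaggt
KIF1B, chr1:10210324-10210383, plus strand: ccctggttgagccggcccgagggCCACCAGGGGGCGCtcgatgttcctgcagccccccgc
RAB3IL1, chr11:61899288-61899317, plus strand: tgcaccggCCACCAGGGGGCGCtcaccgtc
GRIK4, chr11:120511211-120511270, plus strand: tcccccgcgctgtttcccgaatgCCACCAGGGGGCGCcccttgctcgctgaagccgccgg
DPEP2, chr16:67993398-67993427, plus strand: cagtacggCCACCAGGGGGCGCccagccct
HOOK2, chr19:12777711-12777770, plus strand: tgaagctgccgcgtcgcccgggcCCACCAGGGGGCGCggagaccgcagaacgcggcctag
PPIL4, chr6:149546333-149546392, plus strand: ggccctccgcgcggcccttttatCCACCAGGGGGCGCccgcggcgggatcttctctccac
MRPL38, chr17:75905126-75905185, plus strand: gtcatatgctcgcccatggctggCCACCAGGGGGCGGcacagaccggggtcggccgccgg

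In 8 of these 9 sites the capitals are the same 14 letters, which reach the highest score the matrix can give, 23.7 bits, and the site of MRPL38 scored 23.1 bits. The bases around the site differ from gene to gene and are rich in G and C. The genes have unrelated roles: KIF1B is a kinesin motor, GRIK4 a kainate receptor subunit, HOOK2 a microtubule adaptor, GMIP a GTPase-activating protein and MRPL38 a protein of the mitochondrial ribosome.

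For contrast, the next sites belong to the members with the highest scores that had H3K4me3 in CT but not in KD. They are named by the nearest protein-coding TSS, which lay between -218847 and 4365 bp away.
B4GALNT3, chr12:547089-547148, minus strand: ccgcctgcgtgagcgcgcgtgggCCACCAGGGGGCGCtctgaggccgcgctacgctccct
AXIN2, chr17:65556547-65556606, minus strand: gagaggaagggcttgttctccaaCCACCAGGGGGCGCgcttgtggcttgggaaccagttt
SPI1, chr11:47374062-47374121, plus strand: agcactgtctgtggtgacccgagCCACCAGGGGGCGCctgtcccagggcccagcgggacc
SEPTIN5, chr22:19679744-19679803, plus strand: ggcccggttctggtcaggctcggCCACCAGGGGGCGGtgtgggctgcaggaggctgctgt
ADAMTSL1, chr9:18255226-18255285, plus strand: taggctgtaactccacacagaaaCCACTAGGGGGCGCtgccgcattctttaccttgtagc

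The last set holds the comparison peaks with the highest score, which had the same 14 capitals without H3K4me3 in CT.
ERI3, chr1:44318401-44318460, minus strand: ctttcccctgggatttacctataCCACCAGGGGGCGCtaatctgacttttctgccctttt
DPF2, chr11:65330070-65330129, minus strand: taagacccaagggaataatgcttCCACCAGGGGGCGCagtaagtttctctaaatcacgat
SLC2A13, chr12:40107688-40107747, minus strand: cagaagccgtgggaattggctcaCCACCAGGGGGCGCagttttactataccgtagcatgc

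Identical sites thus occurred with and without H3K4me3 in CT, and with H3K4me3 that was or was not found again in KD. The sequence around the 3 comparison sites held fewer G and C bases, with 47.7%, 48.7% and 48.1% GC over their CTCF peaks against 55.8% to 70.0% over the CTCF peaks of the 10 highest-scoring TSS members, 9 of which are shown. The 3 comparison sites lay over 1000 bp from a protein-coding TSS, so this contrast mixes position with H3K4me3. The members without H3K4me3 in KD shown above also lay over 1000 bp from one. Their GC content ran from 42.9% at ADAMTSL1 to 68.9% at B4GALNT3. Because the sites were picked by score, these values are a description.

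The label of the lists was checked first. The kidney and neural progenitor genes PAX2, LHX1, NEFM, NEFL and VIM, known in HEK-293 cells, each had an H3K4me3 CT peak within 1000 bp of a TSS. The blood genes PTPRC, CD3E and SPI1 had none, nor did the 3 muscle genes MYH2, CKM and ACTA1, while of the 3 liver genes ALB, APOA1 and TTR only TTR did. Since 14258 of all 19663 protein-coding genes had H3K4me3 CT at a TSS, its presence at a few genes says little about the cell type. The members were also searched for a CTCF motif, whose absence does not show that CTCF was not bound. A CTCF motif was found in 6819 of 9229 members (73.9%, exact Clopper-Pearson 95% interval 73.0 to 74.8), beside 47.2% of all CT CTCF peaks, and 2410 members had none. The matrix was learned from masked CT peaks shared with KD and OE, so it can favour constitutive peaks over the rest.

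The members fell into unlike kinds once the lists that the rule had not used were laid over them. Of the 9229 members, 2507 (27.2%, 26.3 to 28.1) also overlapped a peak of the input, of H3K9me3 or of H3K27me3 in CT or KD, and 1358 of these lay under a peak in all 10 unmasked lists, input included. The remaining 6722 members were clear of these other lists. A motif was found in 95.4% of the clear members and in 16.3% of those over other lists. This split was made after the data were seen, and results are given below with and without the 2507 peaks. Their part in a result was not tested beyond these values. Among the comparison peaks, 775 (8.37%) overlapped an other list and none was in all 10 lists.

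Repeated sequence marked the second kind. Repeated bases were those inside any 24-mer with 10 or more copies in hg38. More than 50% of the bases were repeated in 94.3% of the members over other lists and in 3.72% of the clear members. This was not particular to members, as the comparison peaks over other lists were alike in sequence. Of those, 88.5% had more than 50% of bases repeated, 19.7% had a motif and 0.516% lay within 1000 bp of a protein-coding TSS. Their mean GC content was 39.7%. The members over other lists had a median of 100% repeated bases, a mean GC content of 40.5%, and only 0.519% of them lay within 1000 bp of a protein-coding TSS. Of these members, 64.1% overlapped an input peak, 88.4% an H3K9me3 CT peak and 90.5% an H3K27me3 CT peak. They were spread over 836 windows of 1 Mb but unevenly, as 603 of the 2507 (24.1%) lay in 12 of these windows, led by chr7:59000001-60000000 with 71 and chr5:49000001-50000000 with 65, and the median gap between neighbours was 36991 bp against 178160 bp among the clear members. The windows of chromosomes 5 and 7 lie in the centromeric sequence models of the build. One member was a 3289 bp peak of the mitochondrial genome, the widest of the CT CTCF list.

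**Figure D1:**
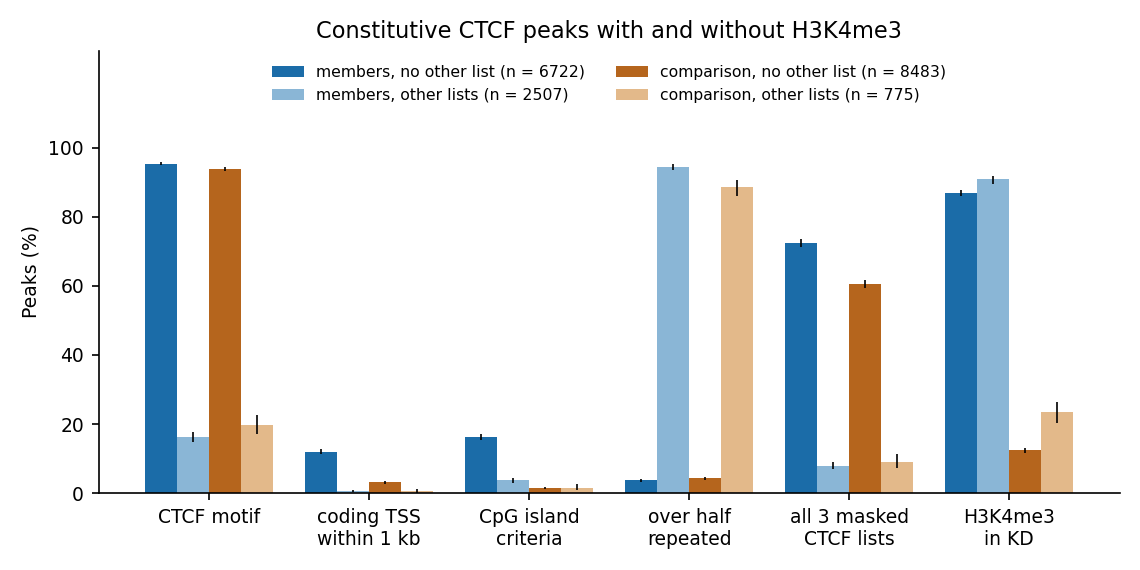
Bars give the share of peaks with each feature in percent, with exact Clopper-Pearson 95% intervals, for members (blue) and comparison peaks (brown), each split by overlap with input, H3K9me3 or H3K27me3 peaks (light). The motif stood in 95.4% of the clear members and 16.3% of the others, while H3K4me3 in KD was found at 90.8% of members and 23.4% of comparison peaks over other lists.

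**Figure D2:**
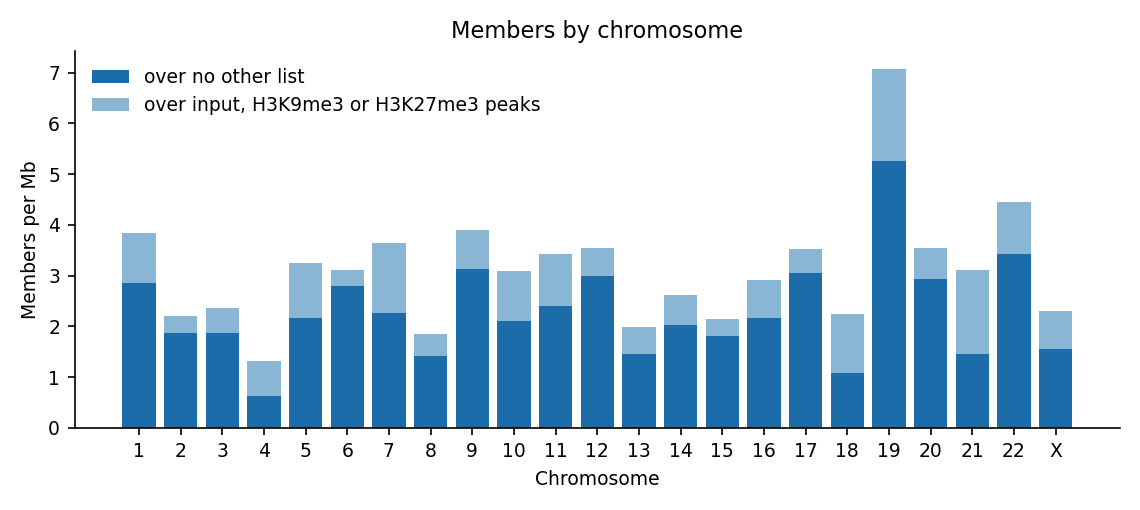
Stacked bars give members per Mb on chromosomes 1 to 22 and X, with Y not plotted, split into members clear of the other lists (dark) and members over input, H3K9me3 or H3K27me3 peaks (light). Chromosome 19 was highest with 5.25 clear members per Mb, and among the chromosomes plotted the members over other lists outnumbered the clear ones on 4, 18 and 21.

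Members over other lists shifted the main sequence comparisons. Over all peaks a motif was found less often in members than in comparison peaks, 73.9% against 87.6%, a difference of -13.8 percentage points (Newcombe 95% interval -14.9 to -12.6, same direction on 23 of 23 chromosomes with at least 20 peaks of each kind). Among peaks clear of the other lists the difference turned to 1.51 points (0.789 to 2.23, 17 of 23 chromosomes), with 95.4% in members and 93.8% in comparison peaks. Leaving out only the peaks over input peaks left -1.67 points (-2.68 to -0.669). A repeated base was likewise found in 40.3% of members and 27.7% of comparison peaks, a difference of 12.5 points (11.2 to 13.9), which became -2.66 points (-3.95 to -1.37) among clear peaks. Of the 2410 members without a motif, 2098 (87.1%) overlapped an other list. Clear members more often held 2 or more sites, 30.6% against 22.4% (8.18 points, 6.77 to 9.60, 21 of 23 chromosomes). They were also wider than clear comparison peaks, with a median of 289 bp against 276 bp, and richer in G and C. The count of sites was adjusted for neither.

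GC content did not depend on this split for its direction. The CT peaks of members had a mean GC content of 47.6% ± 9.75 (SD, n = 9229 peaks) and comparison peaks 44.3% ± 8.95 (n = 9258), a difference of 3.32 points (normal 95% interval 3.05 to 3.59). Among clear peaks the means were 50.3% and 44.7%, a difference of 5.57 points (5.27 to 5.87). The criteria of a CpG island, at least 50% GC and an observed over expected CpG of at least 0.6 in the 300 bp around the peak centre, were met by 12.8% of members and 1.45% of comparison peaks (11.4 points, 10.7 to 12.1, 23 of 23 chromosomes). As H3K4me3 is deposited at CpG islands, these differences describe what the rule selects.

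Promoters made up a small share of the members. The centre lay within 1000 bp of a protein-coding TSS in 822 members (8.91%, 8.33 to 9.51) and in 266 comparison peaks (2.87%), a difference of 6.03 points (5.36 to 6.71, 23 of 23 chromosomes). Among clear peaks the shares were 12.04% and 3.09%. Counting TSSs of all annotated transcripts raised them to 16.8% of all members and 9.73% of all comparison peaks. Most members were thus distal to annotated starts. They differed here from the H3K4me3 CT list as a whole, of which 29.3% lay within 1000 bp of a protein-coding TSS against 10.7% of the H3K4me3 CT peaks with a member.

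The 822 TSS members sat upstream of the start. The centre was upstream of the nearest protein-coding TSS in 615 (74.8%, 71.7 to 77.8), with a median position of -123 bp, and 317 (38.6%) lay in the 200 bp before the TSS against 74 in the 200 bp after it. Of the 266 comparison peaks near a TSS, 66.2% were upstream, 8.65 points fewer (interval of the difference 2.42 to 15.2). With all annotated transcripts in place of protein-coding ones, the upstream share of members had a 95% interval of 61.6 to 66.4%. Protein-coding TSSs of both strands lay within 1000 bp of the peak centre in 66 of the 822 (8.03%), whichever way they faced each other.

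The motif of the TSS members was on the strand of the gene somewhat more often than on the other strand. The best site was on the strand of the gene in 432 of 758 TSS members with a motif (57.0%, 53.4 to 60.5). Position split this share: in the 200 bp upstream of the TSS, 194 of 290 were on the strand of the gene (66.9%, 61.2 to 72.3), against 50.9% elsewhere, a difference of 16.04 points (8.85 to 22.9). The 200 bp limit was chosen after the positions were seen. From 0 to 100 bp after the TSS, a bin counted as elsewhere, 37 motifs were on the strand of the gene and 16 on the other. The higher share was thus not confined to the upstream side. Among comparison peaks near a TSS 54.7% were on the strand of the gene, and the difference of 2.30 points (-4.65 to 9.35) was not distinguishable from 0. With only the widest 20000 peaks of each CTCF list, the share in members was 55.3% and its interval (47.9 to 62.6) included 50%.

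**Figure D3:**
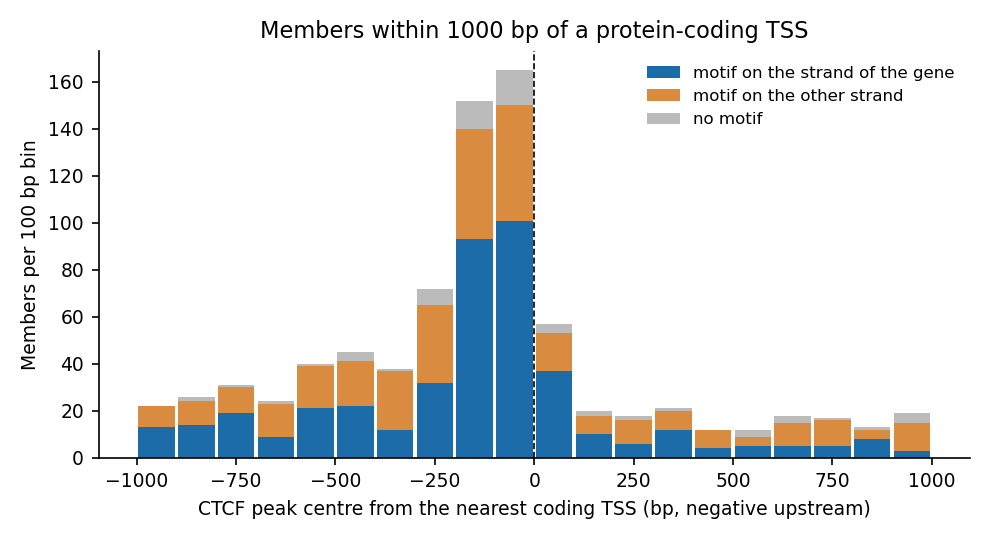
Stacked bars count the 822 members within 1000 bp of a protein-coding TSS in bins of 100 bp by the signed distance of the CTCF peak centre from the TSS, coloured by the strand of the best motif relative to the gene. The 2 bins before the TSS are the tallest, with 152 and 165 members, and in both the strand of the gene leads.

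Letters known from promoter factors were searched on both strands in the 300 bp around the peak centre, and they are given as a description. The GC box GGGCGG, the letters of SP1-like factors, was in 42.2% of clear TSS members, 15.9% of clear distal members and 7.03% of clear comparison peaks, beside 45.0% of 35116 RefSeq promoters of 300 bp (GRCh38.p14). GGGCGG can also be the end of a CTCF site, as in the MRPL38 and SEPTIN5 sites above. Matches inside CTCF sites were not counted apart, so these shares hold both. The ETS letters CCGGAAG were in 13.2%, 3.23% and 1.33%, beside 10.3% of promoters. The TATA letters TATAAA went the other way, with 6.06%, 16.03% and 22.5%, beside 11.5% of promoters. CGG triplets were in 2.10% of clear TSS members and 6.21% of promoters. CpG island criteria were met by 54.0% of clear TSS members, 11.1% of clear distal members and 1.44% of clear comparison peaks, beside 46.9% of promoters.

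A member lay within 1000 bp of a TSS of 893 of 19663 protein-coding genes (4.54%), and of 6.26% of the 14258 with H3K4me3 CT at a TSS. The lists are small, and differences between them and this background were not tested. Of 81 cytosolic ribosomal protein genes, 15 (18.5%) had a member. Of 53 clustered protocadherin genes, which encode cell adhesion proteins chosen one promoter at a time in neurons, 8 (15.1%) had one. Of 39 proteasome genes 5 had one (PSMB7, PSMC4, PSMD3, PSMD6 and PSMD9), of 14 H3K4 methylation genes 2 (KMT2B and RBBP5), of 20 cytosolic tRNA synthetase genes 1 (RARS1), of 248 zinc finger genes of chromosome 19 5 and of 69 replication-dependent histone genes 2 (H2AC21 and H4C2). None of 15 CTCF and cohesin genes, 39 HOX genes and 13 kidney development genes had a member at a TSS. Of these genes, all 15, 28 and 10 had H3K4me3 CT there. Lists of this size can hold no member at a background of 6.26%, so nothing is read from the absence.

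The 15 members at ribosomal protein genes shared a motif and varied in width. All 15 had a motif, on the strand of the gene in 12, and 14 were centred upstream of the TSS, with a median of -133 bp over all 15 and a range of -714 to 60 bp. At RPL5, a protein of the large ribosomal subunit, the CTCF peak (chr1:92831852-92832094, centre at -40 bp from the TSS) measured 243, 248 and 281 bp in CT, KD and OE, and the H3K4me3 peak was 1908 bp in CT and 1935 bp in KD. At RPLP0, a protein of the ribosomal stalk, the CTCF peak (chr12:120201255-120201480, -133 bp) was 226, 362 and 352 bp wide in CT, KD and OE, with H3K4me3 of 2245 and 2204 bp. Over all 15 the median CTCF width was 293, 332 and 319 bp in CT, KD and OE, and H3K4me3 had a median of 1908 bp in CT and 2088 bp in KD. CTCF widths in CT ran from 199 to 741 bp, and H3K4me3 widths from 369 to 2779 bp in CT and from 299 to 2848 bp in KD. All 15 had H3K4me3 in both conditions. A further member of the group with a high score was at RPL38 (-11 bp).

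At the protocadherins the members lay on the promoters themselves, at a median of -31.5 bp, and all 6 with a motif had it on the strand of the gene. PCDHB9 had the highest score (21.0 bits), with a CTCF peak centred at -2 bp (chr5:141187035-141187374), with widths of 340, 270 and 210 bp in CT, KD and OE, and H3K4me3 of 422 bp in CT and 476 bp in KD. PCDHB10, PCDHB11 and PCDHB15 had theirs at -9, -148 and -104 bp. H3K4me3 over the 8 members had a median of 816 bp in CT and 878.5 bp in KD, and no listed member overlapped an other list.

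The other listed members near a TSS varied. KMT2B, an MLL-type H3K4 methyltransferase, had its member (chr19:35716815-35717198) at -966 bp with the motif against the gene, and RBBP5, a core subunit of the same complexes, at -446 bp with a weaker site of 10.0 bits. PSMC4 and PSMD6, subunits of the proteasome cap, had members at -276 and -60 bp. The PSMC4 H3K4me3 peak was 1929 bp wide in CT and 722 bp in KD, while that of PSMD6 was 1554 bp in CT and 1511 bp in KD. At PSMD3 the order was opposite to that at PSMC4, with 524 bp in CT and 2346 bp in KD. Each width is that of the single H3K4me3 peak with the largest overlap with the CTCF peak. Neighbouring H3K4me3 peaks were not joined, so these widths need not measure the whole marked stretch. At RARS1, the arginyl-tRNA synthetase, the member was centred at -80 bp with the motif on the strand of the gene. At H4C2 and H2AC21 the motif was on the other strand. Among the zinc finger genes 1 of 4 motifs was on the strand of the gene, with ZNF329 at -155 bp the best by score.

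The widest H3K4me3 CT peaks with a member overlapped an H3K4me3 KD peak as well. The peak over CRABP2, a retinoic acid-binding protein, was 3131 bp wide in CT and 2814 bp in KD, with a member at -294 bp (chr1:156705949-156706271) that scored 22.7 bits. That of ORC6, a subunit of the origin recognition complex, was 3245 bp in CT and 3281 bp in KD around a member without a motif. The widest, 3539 bp on chr9:67722602-67726140, was 1156 bp in KD, and its member had no motif and overlapped an other list. That of CNNM4, a magnesium transporter, was 3301 bp in CT and 3233 bp in KD. The peak of the mitochondrial genome, the third widest, was 3255 bp in CT and 2816 bp in KD, and its member also overlapped an other list.

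Nearly all H3K4me3 peaks with a member held a single one. Of 9250 H3K4me3 CT peaks with a member, 57 had 2 and none had more. At H3-3A, a gene for the replacement histone H3.3, a 2533 bp H3K4me3 CT peak (2475 bp in KD) held members at 445 and 1041 bp after the TSS, with motifs of 21.4 and 15.99 bits on opposite strands. At CAMLG a 2256 bp peak held members at -161 and 914 bp, again on opposite strands. At ISG20L2 the members lay in an intron, 2465 and 1633 bp past the TSS, and both motifs were on the minus strand.

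Distal members, those clear of the other lists and over 1000 bp from a protein-coding TSS, numbered 5913 and formed the largest kind. Of these, 95.7% had a motif, and 82.5% had one at the stricter threshold, a matrix probability below 0.00001, against 79.8% of clear comparison peaks (2.71 points, 1.41 to 3.99, 17 of 23 chromosomes). TSS members had weaker sites, with 70.8% at that threshold, 11.7 points fewer than distal members (interval of the difference, TSS minus distal, -15.05 to -8.50, 16 of 16 chromosomes). Distal members lay in a gene in 54.6%, fewer than the 62.3% of clear comparison peaks (-7.69 points, -9.32 to -6.05), and 72.4% of them, against 60.5%, were also found in all 3 CTCF lists made from repeat-masked reads (11.9 points, 10.3 to 13.4), which rest on the same libraries.

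H3K4me3 differed in shape between the kinds, as chosen by the rule and given as a description. The H3K4me3 CT peak had a median width of 1074 bp at clear TSS members, 470 bp at distal members and 290 bp at members over other lists. Its centre was a median of 288.5, 123 and 19.5 bp from the centre of the CTCF peak. At members over other lists the H3K4me3 and CTCF peaks were therefore nearly concentric and of like width, since the CTCF CT peaks there had a median of 289 bp. Over the list as a whole the median H3K4me3 CT width was 545 bp.

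At distal members H3K4me3 covered both sides of the CTCF peak centre but leaned to one side of the motif. In CT, 50.8% of them were covered at 200 bp on the 5′ side and 73.4% at 200 bp on the 3′ side. The centre of the H3K4me3 CT peak was on the 3′ side of the best CTCF site, read along CCACCAGGGGGCGC, in 3793 of 5652 (67.1%, 65.9 to 68.3), at a median of 68 bp, and the share was above 50% on 23 of 23 chromosomes. In KD, a library the rule did not use, it was 66.7% (65.3 to 68.0), again on 23 of 23 chromosomes. Members over 1000 bp from any annotated TSS gave 67.1%, those with a single site 67.3%, those in no gene 66.9% and those with an H3K4me3 CT peak of 500 bp or more 65.05%. With distal members over other lists included it was 65.7%. The CTCF peaks themselves leaned the same way by a few bp, with centres on the 3′ side in 56.6% in CT, 59.6% in KD and 59.1% in OE at a median of 7.5 to 8 bp. This measurement was made after the coverage of H3K4me3 around the members had been seen.

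The same lean was measured at comparison peaks that had H3K4me3 in KD alone, with 66.3% (63.4 to 69.2), so it was not particular to members. Other sets gave other shares, and the differences were not tested. Members over other lists that had a motif gave 46.0% (41.1 to 50.9) in CT and 46.1% in KD. At clear TSS members the 3′ side was taken in 71.6% where the motif was on the strand of the gene and in 46.9% where it was on the other strand. CT CTCF peaks at H3K4me3 that were not constitutive gave 57.97% (54.6 to 61.2), and members as a whole, TSS members and members over other lists included, 65.2% (64.02 to 66.3).

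**Figure D4:**
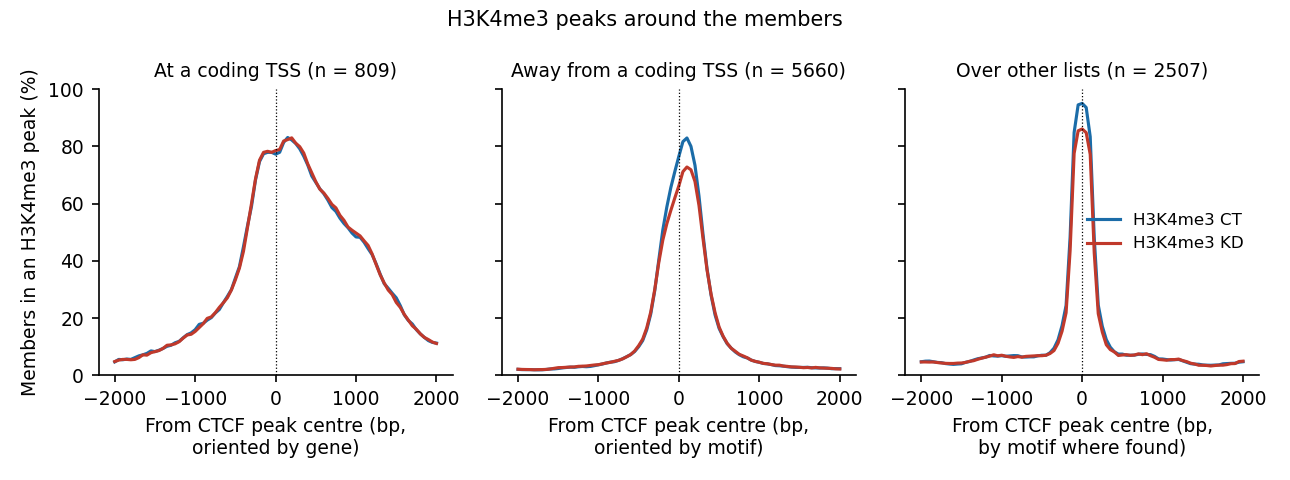
Lines give the share of members, in percent, whose base at each distance from the CTCF peak centre lies in an H3K4me3 peak of CT (blue) or KD (red), for clear TSS members oriented by the gene, clear distal members with a motif oriented by the motif, and members over other lists. At distal members 16.4% are covered at 500 bp on the 3′ side and 10.0% at 500 bp on the 5′ side in CT, and at TSS members 67.4% and 34.0% are covered at 500 bp towards and away from the gene.

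H3K4me3 of the members was mostly found again when CGGBP1 was silenced. Of the 9229 members, 8120 overlapped an H3K4me3 KD peak (88.0%, 87.3 to 88.6), near the 85.9% of all H3K4me3 CT peaks that did so, and of the comparison peaks 1238 (13.4%) did. By kind the share was 97.7% of clear TSS members, 85.5% of clear distal members and 90.8% of members over other lists. The first 2 differed by 12.2 points (10.6 to 13.4, 16 of 16 chromosomes). CT peaks at H3K4me3 that were not constitutive overlapped H3K4me3 in KD in 82.0%, 5.96 points fewer than members (4.27 to 7.74).

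The width of the H3K4me3 CT peak went with this share. Over all widths 88.5% of H3K4me3 CT peaks with a member and 85.6% of those without any CTCF peak overlapped an H3K4me3 KD peak, a difference of 2.91 points (2.19 to 3.61, 17 of 23 chromosomes). With clear peaks only, the shares were 87.6% and 86.0%, a difference of 1.62 points (0.758 to 2.43, 16 of 23 chromosomes). Among peaks clear of the other lists and narrower than 300 bp it was 67.1% of 1537 with a member against 57.8% of 11643 without CTCF (9.32 points, 6.77 to 11.8, 21 of 22 chromosomes). Between 300 and 500 bp it was 84.0% against 80.8% (3.12 points, 1.24 to 4.87, 16 of 22 chromosomes), and from 500 to 700 bp 97.5% against 94.99% (2.53 points, 1.46 to 3.38). Above 1000 bp all clear peaks with a member and all but 7 clear peaks without CTCF were found again, and no difference was detectable.

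Position went with the share found again in KD as well. It was counted over all peaks, those over other lists included, and without matching by width. Away from a protein-coding TSS 87.4% of H3K4me3 CT peaks with a member and 79.5% of those without CTCF were found in KD (7.92 points, 7.09 to 8.73, 23 of 23 chromosomes). Within 1000 bp of one the shares were 97.98% and 98.12%, a difference of -0.137 points (-1.23 to 0.599). Peaks with a member were narrower as a set, with a median of 412 bp against 574 bp without CTCF, and a list of positions cannot tell a lower signal from a missing one.

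**Figure D5:**
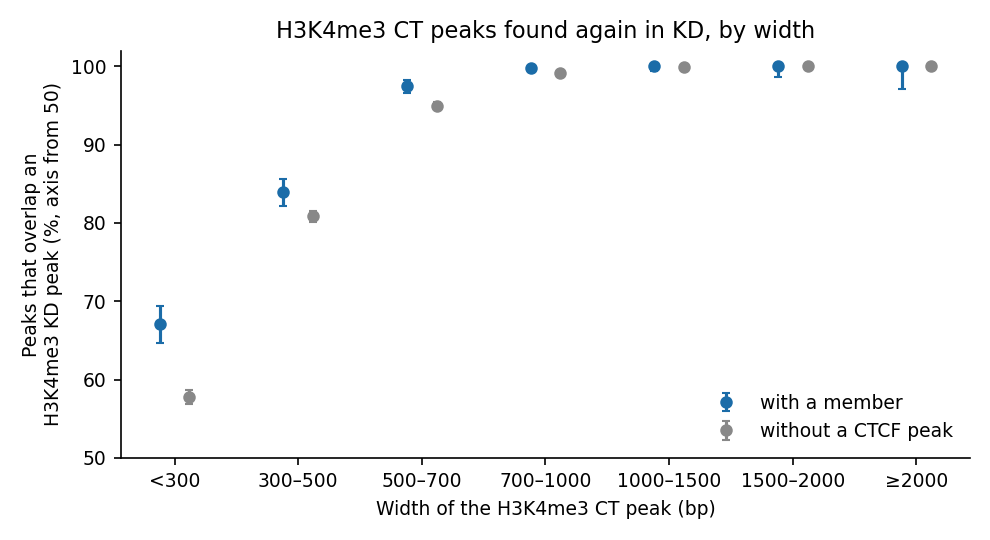
Points give the share of H3K4me3 CT peaks, in percent on an axis that starts at 50, that overlap an H3K4me3 KD peak, by the width of the CT peak, with exact Clopper-Pearson 95% intervals, for peaks with a member (blue) and without any CTCF peak (grey), both clear of input, H3K9me3 and H3K27me3 peaks. Below 300 bp the shares are 67.1% and 57.8%, and from 700 bp on both exceed 99%.

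The 1109 members without H3K4me3 in KD had narrow H3K4me3 in CT, a median of 257 bp against 460 bp at the members that kept it. Only 19 of them (1.71%) were near a protein-coding TSS, and 851 (76.7%) had a motif. In B4GALNT3, a gene for a glycosyltransferase, the member in an intron (chr12:546956-547212) had CTCF peaks of 257, 367 and 276 bp in CT, KD and OE, and an H3K4me3 CT peak of 501 bp. The member in AXIN2, a negative regulator of Wnt signalling, had CTCF peaks of 248, 207 and 445 bp and overlapped the edge of an H3K4me3 CT peak of 370 bp. That in SPI1, a transcription factor of blood cells, had CTCF peaks of 402, 369 and 337 bp and an H3K4me3 CT peak of 194 bp, the narrowest width in that list. CTCF was thus called in all 3 conditions at these sites by the rule, and H3K4me3 in CT only.

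Repressive marks within 10 kb were counted for all peaks and for clear peaks. The second count leaves out, by its construction, every peak that overlaps H3K9me3 or H3K27me3, so that the loss of a difference there is no independent result. An H3K9me3 CT peak lay within 10 kb of 31.1% of members and 13.7% of comparison peaks, a difference of 17.3 points (16.2 to 18.5). Among peaks clear of the other lists the shares were 7.05% and 7.27%, and the difference of -0.222 points (-1.04 to 0.609) was not distinguishable from 0. In KD the clear shares were 3.15% and 3.21%. For H3K27me3 in CT the shares within 10 kb were 26.8% and 6.79% over all peaks and 1.81% and 2.04% among clear peaks. In KD clear members had H3K27me3 within 10 kb in 0.952% and clear comparison peaks in 1.44% (-0.486 points, -0.831 to -0.136). Of the 822 TSS members, 7 overlapped H3K9me3 in CT and 4 H3K27me3 in CT.

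The widths of CTCF peaks across CT, KD and OE describe the members and are not tested, as the rule used these lists. The median width of members was 289, 332 and 312 bp in CT, KD and OE. The ratio of a KD to its CT width had a median of 1.16 among clear members (quartiles 0.934 and 1.42) and 1.01 among members over other lists, and OE to CT gave 1.09 and 1.01. Clear comparison peaks gave 1.13 in KD and 1.04 in OE. The OE list was called at a looser threshold than the others per the labels, and depth per peak is unknown, so widths across libraries are set side by side only.

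Neighbouring sites were also turned alike in both sets. Of 2147 pairs of adjacent clear members with motifs at most 100000 bp apart, 48.5% were on the same strand, 32.0% (30.0 to 34.0) pointed away from each other and 19.6% (17.9 to 21.3) towards each other. Among 2464 pairs of clear comparison peaks the shares were 47.4%, 32.5% and 20.2%. Pairs share peaks, so the intervals are too narrow.

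The edge of the rule was sharp. Of the members, 309 (3.35%) overlapped H3K4me3 by under 50 bp, and 113 comparison peaks (1.22%) had an H3K4me3 peak within 50 bp. The median overlap was 238 bp, and 80.9% of members were covered over at least 50% of their width, while the nearest H3K4me3 CT peak was a median of 12666 bp from a comparison peak. Set beside the 2203 CT CTCF peaks at H3K4me3 that were absent from KD or OE, members had a motif more often, 73.9% against 40.2% (33.7 points, 31.4 to 35.9, 23 of 23 chromosomes), and were near a protein-coding TSS less often, 8.91% against 21.3% (-12.4 points, -14.2 to -10.6). The motif matrix was itself learned from masked CT peaks shared with KD and OE. It can therefore favour members here, and the motif shares are a description. The overlap with other lists was 27.2% and 28.3% (-1.16 points, -3.28 to 0.897).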

How the data were processed

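HEK-293T ChIP-seq peak lists for CTCF (CT, KD, OE), H3K4me3, H3K9me3 and H3K27me3 (CT, KD) and input were analysed, 1 library each. The authors had mapped reads with Bowtie2 to masked and unmasked hg38 and called peaks with MACS2. Per the labels, unmasked thresholds were 0.0025 for CTCF CT and KD, 0.005 for CTCF OE and 0.001 for histone marks and input, whereas the methods state 0.005 for all unmasked lists. The antibodies for H3K9me3 and H3K27me3 are interchanged between labels and methods, and lists were used by title. The deposited values are positions only, with starts read as counted from 0. The cells of the input are not named. The 6 lists of exclusive CTCF peaks were not used.

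Overlaps of 1 bp, GENCODE release 44 TSSs and hg38 sequence were processed in Python 3.11.15 with numpy, scipy and pysam. The 14-column CTCF matrix was learned from 12859 masked CT peaks shared with KD and OE, and a site had a probability below 0.0001 under the base composition. Repeated bases were defined by 24-mers, as RepeatMasker was not run. Motif and k-mer searches were tested on simulated data. Shares carry exact Clopper-Pearson, differences Newcombe and GC means normal 95% intervals. The split by other lists, the side of the motif and the 200 bp limit were chosen after seeing the data. The members, gene lists and comparisons were chosen with earlier results of these data known. Members were named by fixed rules: the 10 highest scores at a TSS, up to 4 per gene list, the 5 in the widest H3K4me3 peaks, the 5 H3K4me3 peaks with the most members, the 5 highest scores without H3K4me3 in KD and the 3 highest scores of comparison peaks. Some genes and 1 sequence chosen by these rules are not reported here.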

Additional observations from a re-analysis of the deposited data

How the results depend on the processing

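The 11 main results were recomputed under 100 alternatives of list, overlap, threshold and distance, of which 87 kept the direction and the side of 0 or 50%, or stayed within the interval or 1.5 times of the count. Leaving out peaks over input, H3K9me3 or H3K27me3 peaks, chosen after seeing the data, reversed the motif difference (1.51 points) and the difference in repeated bases (-2.66). The H3K9me3 difference was lost there (-0.222 points, -1.04 to 0.609), in a set that leaves out peaks over H3K9me3 by construction. Without peaks over input peaks the difference in repeated bases was 0.739 points, with an interval that includes 0. The difference in H3K4me3 found again in KD was -0.137 points for H3K4me3 peaks within 1000 bp of a TSS and 0.0757 for those of 1000 to 2000 bp. The number of members was 5063 when the 3 repeat-masked lists were also required and 2566 with the widest 20000 peaks of each CTCF list, where the share of motifs on the strand of the gene was 55.3%. The share of members with H3K4me3 in KD was 90.4% with overlaps of at least 50% of a peak, 86.2% without peaks over input peaks, 90.6% with the widest peaks and 86.9% without peaks over other lists. Requiring H3K4me3 in both conditions fixes that share, so it was not run there. Causes were not tested. The lists carry no depth, so a peak that is missing from a list cannot be told from one under the threshold.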
